A study of Homo sapiens with 5 samples.

Results

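COV434 is a cell line that the labels describe as human ovarian granulosa tumour cells, and the RNA of its untreated cells is described here. The cells were represented by the 2 libraries labelled control, of 5 libraries in the series, chosen by that label alone. The other 3 libraries came from cells given 3-nitropropanoic acid (3-NP) and were not used. All sample titles name COV434, but the cell line field counts upward over the 5 samples and reads COV435 for the second control library. The labels give no culture condition or harvest date, and nothing in them says that both libraries came from separate cultures. Spreads between them may therefore be technical. Messenger RNA was selected with a stranded kit, and the deposited level of each gene was read as FPKM, the number of reads scaled for the length of the gene and the depth of the library. The levels correspond to depths of about 18753000 and 17838000 reads. Where a pair of values is given, the first belongs to control replicate 1 and the other to control replicate 2. With 2 libraries of 1 condition no test was made.

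Granulosa cells surround the oocyte in the ovarian follicle. They respond to follicle-stimulating hormone through the receptor FSHR, convert androgens to oestrogens with the aromatase CYP19A1, and secrete inhibins and anti-Mullerian hormone. The transcription factor FOXL2 keeps their identity, and NR5A1 (steroidogenic factor 1) drives genes of steroid synthesis. COV434 was established as a granulosa cell tumour line. Later literature placed it with small cell carcinoma of the ovary, hypercalcaemic type, a tumour that usually lacks the proteins of the chromatin remodellers SMARCA4 and SMARCA2. RNA levels do not measure those proteins, and no identity is assigned here.

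The files listed 30631 genes, of which 17105 were protein-coding. All counts and shares cover these genes only. Of 810 genes in the gene lists used below, 756 had a value. Whether the others were left out for a low level is not given in the sources used here. The lists were chosen with earlier results of these data known, so their shares may in part return that choice. At or above 1 FPKM in both control libraries were 10810 genes (35.3% of all). Among protein-coding genes 9950 did so (58.2%). Levels of 10 FPKM or more were reached by 3702 genes, of 100 or more by 325, and of 1000 or more by 21. At the other end, 6049 genes were listed at 0 in both libraries, 1575 of them protein-coding. A value of 0 is compatible with up to 3 reads, which on an exonic length of 2 kb is 0.08 FPKM in control replicate 1 and 0.0841 FPKM in control replicate 2. A further 5174 genes had reads in 1 library alone, and the highest of those values was 5.03 FPKM. Long noncoding genes passed 1 FPKM in 399 of 7537 cases, and annotated pseudogenes in 384 of 4254. The total was carried by few genes. In control replicate 1, 314 genes held 50% of the summed FPKM, and in control replicate 2, 281 genes did. The 100 highest genes held 36.8% and 37.5%.

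**Figure D1:**
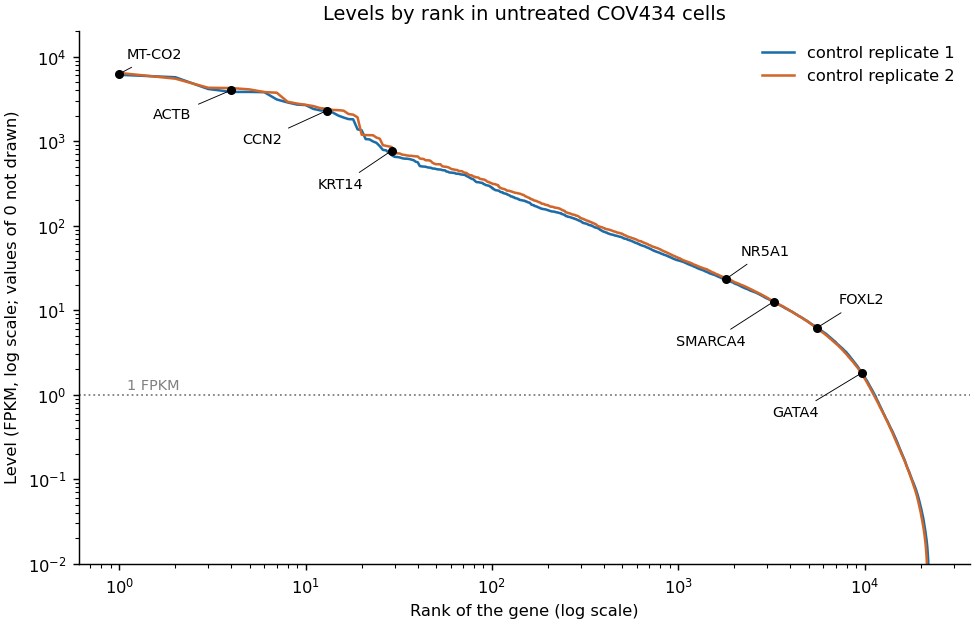
Level of each gene (vertical axis, FPKM, log scale) against its rank (horizontal axis, log scale) in the 2 control libraries, 1 line each; black points are means of named genes. The lines run close together between MT-CO2 at the top and 1 FPKM, the dotted line, which 10810 genes passed in both libraries. NR5A1, SMARCA4, FOXL2 and GATA4 lie above it.

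The 13 mitochondrially encoded messenger RNAs, which specify subunits of the respiratory chain and ATP synthase, made up 13.2% and 12.2% of the summed FPKM. The highest gene of both libraries was MT-CO2, a cytochrome c oxidase subunit, at 6108 and 6429 FPKM. MT-CO1 (5712 and 5494 FPKM) and MT-CO3 (4150.1 and 4290.1 FPKM) encode the other mitochondrial subunits of that enzyme. MT-CYB, of complex III, stood at 3119 and 2934 FPKM, and MT-ND4, of complex I, at 2877 and 2695 FPKM. All but 1 of the 13 were above 100 FPKM in both libraries. The exception was MT-ATP8, at 17.8 and 19.2 FPKM, which overlaps MT-ATP6 (2306 and 2416 FPKM) on the genome, so that the counting of shared reads bears on both values. Cytosolic ribosomal protein genes, 83 in the files, held 3.81% and 4.5% of the summed FPKM. Of these, 78 were at or above 1 FPKM in both libraries, against 58.2% of protein-coding genes. The median over all 83 was 82.7 and 105 FPKM. RPL41 led them with 503 and 673 FPKM, followed by RPS2 with 465 and 625 FPKM and RPS12 with 403 and 497 FPKM.

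Among the other protein-coding genes the highest by mean was ACTB, the cytoplasmic beta actin, on chromosome 7, at 3805 and 4255 FPKM. TMSB10 and TMSB4X, which bind actin monomers, reached 2712 and 3817 FPKM and 2008 and 2460.0 FPKM. CCN2, a matricellular protein known as connective tissue growth factor, had 2313 and 2296 FPKM, and its relative CCN1 had 622 and 688 FPKM. Both are textbook targets of YAP signalling. Secreted and matrix products were also among the highest genes. COL1A1, a chain of type I collagen, had 606 and 619 FPKM. IGFBP5 and IGFBP7, which bind insulin-like growth factors, had 628 and 533 FPKM and 475 and 666 FPKM. The neutrophil chemokine CXCL8 was at 572 and 534 FPKM. Of 42 listed growth factors, cytokines and proteases 41 were in the files. Of those, 33 (80.5%) passed 1 FPKM in both libraries, against 58.2% of protein-coding genes. Ferritin was high in both chains, with FTL at 1815 and 2330.2 FPKM and FTH1 at 875 and 1179.7 FPKM. LGALS1, a galactose-binding lectin, stood at 1827 and 2342 FPKM, and the small heat shock gene HSPB1 at 1383 and 1917 FPKM. CDKN1A, the cell-cycle inhibitor p21, was the 14th of these genes with 789 and 854 FPKM. UCHL1, a ubiquitin hydrolase abundant in neurons, had 563 and 694 FPKM.

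Several processed pseudogenes were listed at over 100 FPKM, and reads may be divided between copy and parent. TMSB4XP8, with 135 exonic bases, had 781 and 897 FPKM, below TMSB4X, and RPS2P5 had 212 and 312 FPKM, below RPS2. ANXA2P2 had 201 and 234 FPKM beside 377 and 421 FPKM for ANXA2. The values of these genes are uncertain to that extent.

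Sequence before an annotated start is shown for 9 genes with very different RNA levels. They are those of 27 candidates, picked after their values were seen, with an entry in the promoter table and at most 30 bases of annotated exon in the window. Each is the 100 bases before the start given by RefSeq (GRCh38.p14), 5′ to 3′ on the strand of the gene, with TATAAA or CATAAA in capitals. For CCN2 it is chr6:131951373-131951472 on the minus strand, for TMSB4X chrX:12975010-12975109 on the plus strand, and for FTL chr19:48965209-48965308 on the plus strand. For GAPDH, a glycolytic enzyme, it is chr12:6535164-6535263 on the plus strand, and for DUSP1, a phosphatase of MAP kinases, chr5:172771196-172771295 on the minus strand. The annotated GAPDH gene runs from 6533927 to 6538374, so its window lies inside the gene, before an internal start. For the oxytocin receptor OXTR it is chr3:8769614-8769713 on the minus strand. The granulosa genes are FOXL2 at chr3:138947138-138947237 on the minus strand, AMH at chr19:2249223-2249322 on the plus strand, and FSHR at chr2:49154516-49154615 on the minus strand.
CCN2: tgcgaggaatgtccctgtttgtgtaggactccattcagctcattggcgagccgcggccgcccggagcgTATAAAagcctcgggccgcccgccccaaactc
TMSB4X: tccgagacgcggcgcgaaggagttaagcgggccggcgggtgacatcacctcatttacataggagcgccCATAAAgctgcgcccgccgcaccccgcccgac
FTL: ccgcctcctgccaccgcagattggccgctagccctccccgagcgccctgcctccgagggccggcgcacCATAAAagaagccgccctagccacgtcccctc
GAPDH: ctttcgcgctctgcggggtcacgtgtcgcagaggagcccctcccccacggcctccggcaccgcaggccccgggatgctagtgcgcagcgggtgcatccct
DUSP1: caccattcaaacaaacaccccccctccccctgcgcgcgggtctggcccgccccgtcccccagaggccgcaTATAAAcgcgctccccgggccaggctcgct
OXTR: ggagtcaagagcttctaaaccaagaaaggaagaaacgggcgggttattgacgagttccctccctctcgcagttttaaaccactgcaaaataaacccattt
FOXL2: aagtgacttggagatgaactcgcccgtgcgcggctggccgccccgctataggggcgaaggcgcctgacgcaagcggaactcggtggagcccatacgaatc
AMH: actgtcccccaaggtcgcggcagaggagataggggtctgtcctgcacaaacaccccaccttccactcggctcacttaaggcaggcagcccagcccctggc
FSHR: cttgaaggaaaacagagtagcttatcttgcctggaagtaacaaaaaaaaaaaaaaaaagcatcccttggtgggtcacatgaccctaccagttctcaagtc
The run TATAAA began 32 bases before the start in CCN2 and 30 bases before it in DUSP1, and CATAAA began 32 bases before it in TMSB4X and FTL. Neither form was found on either strand of the 100 bases of OXTR, FOXL2, AMH or FSHR, nor in the internal window of GAPDH (994 and 1177 FPKM). Sequence before the start of the whole GAPDH gene was not examined. DUSP1, with a match, had 194 and 222 FPKM. Apart from GAPDH, the genes without a match to either form had lower levels than those with one. The plan named TATAAA alone, and CATAAA was added to it. With TATAAA alone, TMSB4X (2008 and 2460 FPKM) and FTL (1815 and 2330 FPKM) have no match, and that order does not hold. The 9 genes were picked after their values were seen, so no relation between match and level can be read from them. Over the 27305 genes with an entry in the promoter table, 3.84% held TATAAA and 2.23% held CATAAA on the sense strand of this window. On the antisense strand the shares were 1.89% and 1.72%. A match is a run of letters, not a site shown to be used. A comparison of promoters between expression levels was void, since 77 of the 100 highest nuclear protein-coding genes had an entry, under the 80% needed.

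Of the 6 genes that define granulosa cells, 2 were at or above 1 FPKM in both libraries, 2 lay between, and 2 were listed at 0. The share at or above 1 FPKM among protein-coding genes was 58.2%. NR5A1, on chromosome 9, had 21.9 and 24.9 FPKM, the highest of 15 granulosa transcription factors. FOXL2, on chromosome 3, had 5.5 and 6.9 FPKM. Both libraries thus held transcripts of the identity factor and of the steroidogenic regulator. In RNA of whole cultures, fewer cells with a transcript and less of it per cell cannot be told apart. AMH, anti-Mullerian hormone, was at 0.866 and 1.19 FPKM, on either side of the threshold. INHA, the shared alpha subunit of the inhibins, was at 0.152 and 0.512 FPKM. FSHR was listed at 0 in both libraries, where 3 reads would give 0.0505 and 0.053 FPKM. CYP19A1 was also listed at 0, with 0.019 and 0.0199 FPKM for 3 reads.

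The other transcription factors of the list divided in the same uneven way. GATA6 had 8.53 and 8.44 FPKM, and GATA4, the partner of NR5A1 on many gonadal promoters, had 1.5 and 2.12 FPKM. NR2F2, also known as COUP-TFII and typical of ovarian stroma, had 11.9 and 11.5 FPKM. RUNX1 had 5.47 and 4.51 FPKM and LHX9, which acts in the early gonad, had 2.67 and 2.37 FPKM. Listed at 0 in both libraries were WT1, ESR2 and EMX2. WT1 is required for the gonadal ridge, ESR2 encodes the oestrogen receptor of granulosa cells, and EMX2 is a homeobox factor of the early gonad. ESR1 was at 0.0822 and 0.111 FPKM. In all, 8 of the 15 passed 1 FPKM in both libraries, against 58.2% of protein-coding genes.

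**Figure D2:**
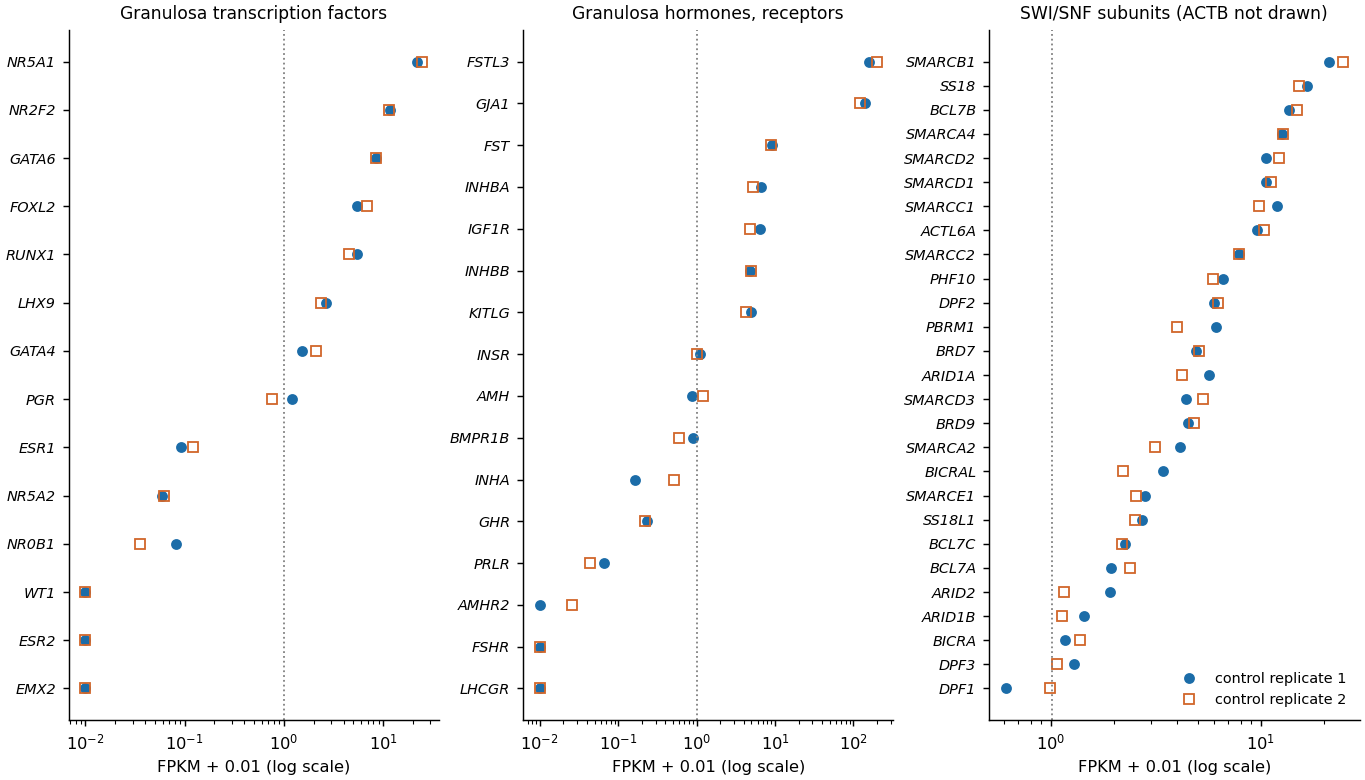
Levels (FPKM + 0.01, log scale) of granulosa transcription factors, granulosa hormones and receptors, and SWI/SNF subunits, 1 row per gene reported here, with filled circles for control replicate 1 and open squares for control replicate 2. NR5A1 and FOXL2 lie above 1 FPKM (dotted line) and FSHR at 0 in both libraries; of the SWI/SNF subunits drawn DPF1 alone lies under the line.

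Of 16 hormones and receptors of granulosa cells 8 passed the same threshold (50%), near the 58.2% of protein-coding genes. FSTL3, a secreted activin antagonist, led with 159 and 198 FPKM, and GJA1, the gap junction protein connexin 43, had 142 and 121 FPKM. The activin subunits INHBA and INHBB had 6.71 and 5.17 FPKM and 4.84 and 4.86 FPKM, while the antagonist FST had 9.07 and 8.84 FPKM. Transcripts of the activin beta subunits were thus present with little of the inhibin alpha subunit. KITLG, the ligand that signals to the oocyte, had 5.01 and 4.2 FPKM. LHCGR, the receptor for luteinising hormone, was listed at 0 in both libraries, and the anti-Mullerian hormone receptor AMHR2 was at 0 and 0.0159 FPKM.

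In steroid synthesis STAR passed, but the enzymes specific to steroid-producing cells were low. STAR, which moves cholesterol into mitochondria, had 4.22 and 3.6 FPKM. CYP11A1, which makes pregnenolone there, was below the threshold at 0.642 and 0.674 FPKM. Its electron carriers were higher, with FDXR at 11 and 12 FPKM and FDX1 at 5.94 and 7.87 FPKM. CYP17A1, which leads to androgens, had 0.0472 and 0.0497 FPKM, and HSD3B2 had 0 and 0.024 FPKM. HSD17B1, which forms oestradiol in granulosa cells, had 0.207 and 0.149 FPKM, whereas HSD17B4, a peroxisomal enzyme of fatty acid oxidation, had 10.7 and 9.87 FPKM. SRD5A1, a steroid 5-alpha reductase, had 8.83 and 7.68 FPKM. SCARB1, which takes up cholesterol, had 6.63 and 7.18 FPKM. Altogether 9 of 15 listed genes (60%) were at or above 1 FPKM in both libraries, near the 58.2% of protein-coding genes.

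Few markers of the other gonadal cell types passed, whereas 58.2% of protein-coding genes did. Among 8 theca and Leydig markers 2 passed, ACTA2 and NR2F2, which stromal and contractile cells also express. INSL3, the hormone of Leydig and theca cells, was listed at 0. Of 8 Sertoli markers SOX9, a testis-determining factor, passed with 4.61 and 3.86 FPKM; AMH, also in this list, passed in control replicate 2 alone, which gives 2 markers without control replicate 1. DMRT1 was at 0.279 and 0.172 FPKM. Among 8 oocyte and germ cell markers in the files PRDM1 passed with 1.97 and 1.68 FPKM. KIT was at 0.652 and 0.453 FPKM, the zona pellucida gene ZP3 at 0.53 and 0.372 FPKM, and DAZL was listed at 0. Of 10 listed pluripotency factors 6 had a value, and none of those reached 1 FPKM. SALL4 was highest at 0.203 and 0.175 FPKM and SOX2 was listed at 0.

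SWI/SNF is the chromatin-remodelling complex built on 1 of 2 alternative ATPases, SMARCA4 or SMARCA2. SMARCA4 had 12.5 and 12.8 FPKM and SMARCA2 had 4.11 and 3.13 FPKM. Transcripts of both ATPases were therefore counted in both libraries. SMARCB1, a core subunit, had 21.1 and 24.5 FPKM, the highest apart from the actin subunit ACTB. The scaffold subunits SMARCC1 and SMARCC2 had 11.9 and 9.8 FPKM and 7.82 and 7.82 FPKM. ARID1A, which targets the canonical complex, had 5.65 and 4.21 FPKM and its alternative ARID1B had 1.43 and 1.12 FPKM. PBRM1 and ARID2, of the PBAF form, had 6.08 and 3.98 FPKM and 1.91 and 1.14 FPKM. BRD9, of the non-canonical form, had 4.46 and 4.78 FPKM. DPF1, which replaces other members of its family in neurons, was the lowest at 0.6 and 0.981 FPKM. Without ACTB, 26 of 27 subunits were at or above 1 FPKM in both libraries, and their median was 4.88 and 4.78 FPKM. Among protein-coding genes 58.2% passed.

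**Figure D3:**
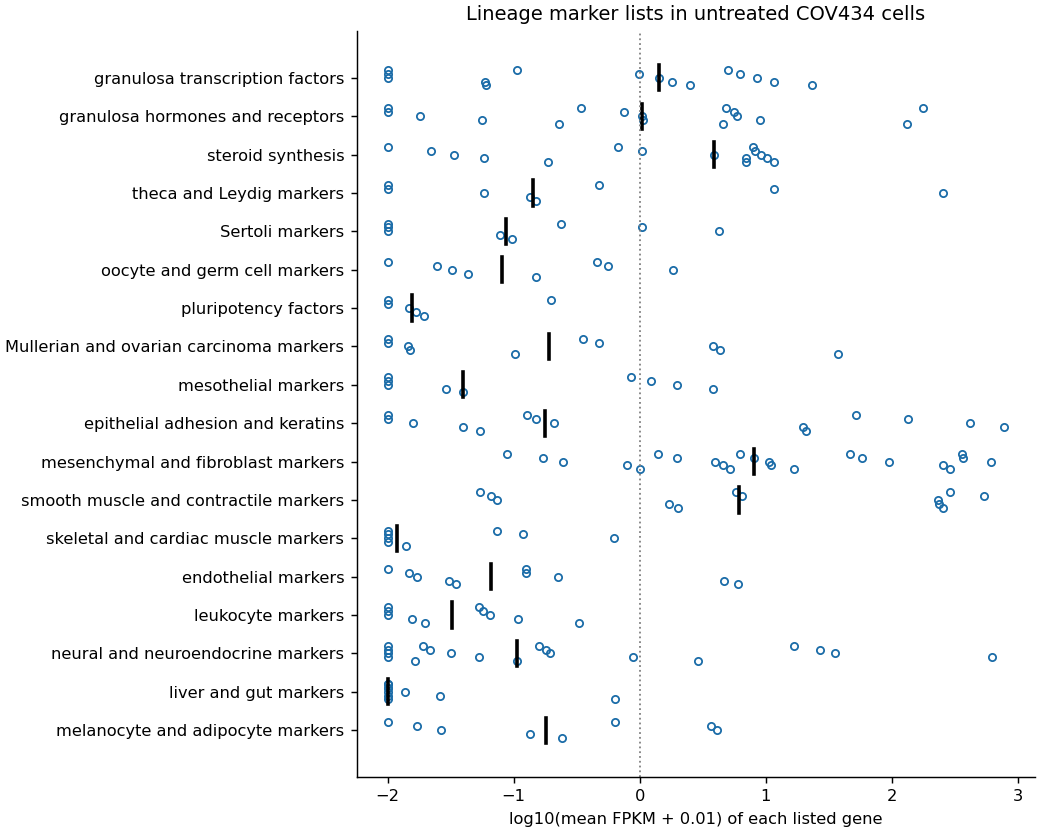
log10(mean FPKM + 0.01) of every listed gene with a value (open circles) in 18 lineage lists, 1 row per list. The median of each list is a black bar and 1 FPKM a dotted line, and points at the left edge are genes listed at 0. The mesenchymal and the contractile list have most of their genes right of the line (18 of 23 and 9 of 12), whereas no pluripotency, leukocyte, skeletal or cardiac muscle, or liver and gut gene lies there.

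Mesenchymal genes formed the fullest lineage list, with 18 of 23 (78.3%) at or above 1 FPKM in both libraries. Since the lists were chosen with earlier results of these data known, their order by share is a description only. The share among protein-coding genes was 58.2%. Besides COL1A1, the collagen chain COL1A2 had 260.3 and 246 FPKM and COL3A1 had 58 and 57.9 FPKM. SPARC, a collagen-binding glycoprotein, had 364 and 374 FPKM. FN1, fibronectin, was at 425 and 302 FPKM, higher in control replicate 1. The intermediate filament gene VIM had 271 and 312 FPKM and the adhesion gene CDH2, N-cadherin, had 106 and 83.1 FPKM. Of the transcription factors that repress epithelial genes, SNAI2 had 10.9 and 10.4 FPKM and TWIST1 had 9.55 and 12.4 FPKM. ZEB1 had 6.07 and 4.38 FPKM, while SNAI1 was at 0.221 and 0.0998 FPKM. Among matrix genes 24 of 26 passed (92.3%). THBS1, thrombospondin 1, had 470.0 and 375 FPKM, and the basement membrane chains COL4A1 and COL4A2 had 412 and 352 FPKM and 263 and 259 FPKM. Fibroblast genes were not uniformly high, since DCN, decorin, was at 0.868 and 0.711 FPKM, LUM, lumican, at 0.16 and 0.317 FPKM, and POSTN, periostin, at 0.127 and 0.0308 FPKM.

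The contractile list passed in 9 of 12 cases (75%), against 58.2% of protein-coding genes. MYL9, a regulatory myosin light chain, had 487 and 595 FPKM, CALD1 had 325 and 253 FPKM and TAGLN had 221 and 254 FPKM. ACTA2, smooth muscle alpha actin, had 239 and 272 FPKM. Lower members that passed included LMOD1 with 5.41 and 6.08 FPKM, ACTG2 with 1.81 and 2.22 FPKM and CNN1 with 1.63 and 1.79 FPKM. MYH11 and DES of the same list were at 0.0728 and 0.0383 FPKM and 0.0433 and 0.0455 FPKM. MYOCD, a master regulator of smooth muscle genes, was at 0.0781 and 0.0505 FPKM. No skeletal or cardiac muscle marker reached 1 FPKM, and MYOD1 and MYOG were listed at 0.

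Several keratins were abundant, while genes of epithelial adhesion differed in level. CDH1, E-cadherin, was at 0.19 and 0.209 FPKM and EPCAM at 0.148 and 0.089 FPKM, but CLDN1, a tight junction protein, had 22.9 and 18.8 FPKM. Of 36 keratin genes in the files, 13 passed 1 FPKM in both libraries, against 58.2% of protein-coding genes, and 14 were listed at 0. This family was examined as a whole after its values were seen. Keratins form filaments from pairs of a type I and a type II chain. KRT14, a type I keratin of basal epidermis, had 682 and 869 FPKM, while KRT5, its usual type II partner, was listed at 0, where 3 reads would give 0.0373 and 0.0392 FPKM. KRT18, the type I keratin of simple epithelia, had 382 and 460.4 FPKM against 17.7 and 21.9 FPKM for its partner KRT8. Other type II chains were KRT81, a hair keratin, with 452 and 582 FPKM and KRT7 with 101 and 168 FPKM. KRT34, a type I hair keratin, had 198 and 247 FPKM. Summed over members, type I keratins came to 1320.0 and 1651 FPKM and type II keratins to 608 and 813 FPKM. KRT19 was at 0.114 and 0.168 FPKM. Genes with near-identical copies in this family share reads, and KRT86 (8.31 and 11.8 FPKM) is a close copy of KRT81.

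Markers used for ovarian carcinoma and mesothelium gave isolated values. FOLR1, folate receptor alpha, had 31 and 43.9 FPKM, the highest of 10 Mullerian and carcinoma markers. PAX8, a factor of Mullerian epithelium, had 3.83 and 4.83 FPKM, and MSLN, mesothelin, had 3.92 and 3.72 FPKM. MUC16, which encodes the CA-125 antigen, was at 0.0073 and 0.00256 FPKM. Of 9 mesothelial markers 3 passed (33.3%, against 58.2% of protein-coding genes), with BNC1 at 2 and 1.91 FPKM and CALB2 at 1.1 and 1.35 FPKM.

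Neural genes were split between a few high members and many near 0. At or above 1 FPKM were 5 of 19 (26.3%), against 58.2% of protein-coding genes. Besides UCHL1, the high ones were STMN2, a tubulin-binding protein of growing axons, with 35.2 and 35.6 FPKM, and NCAM1 with 18.3 and 15.1 FPKM. ENO2, the enolase used as a neuroendocrine marker, had 26.6 and 27 FPKM. The granins of secretory granules were not among them, since CHGA was listed at 0 and CHGB was at 0.0235 and 0 FPKM. SYP, a protein of synaptic vesicles, was at 0.0511 and 0.14 FPKM.

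Other lineages were close to 0, whereas 58.2% of protein-coding genes passed. Of 16 listed leukocyte markers 10 had a value, and none of those reached 1 FPKM. PTPRC, the common leukocyte antigen CD45, was at 0.0956 and 0.1 FPKM and CSF1R was highest at 0.373 and 0.272 FPKM. Of 10 endothelial markers 2 passed, TEK, the angiopoietin receptor, with 6.89 and 5.19 FPKM and EGFL7 with 3.8 and 5.47 FPKM. PECAM1 and CDH5, which define endothelium, were at 0.0206 and 0.0289 FPKM and 0 and 0.00939 FPKM. None of 10 liver and gut markers passed, and 7 of them were listed at 0. AFP was the highest of those at 0.425 and 0.826 FPKM, with ALB at 0.0316 and 0 FPKM. Of 11 markers of other epithelia 1 passed. MITF, the melanocyte factor, had 4.47 and 3.7 FPKM, and its target PMEL had 0.164 and 0.302 FPKM. PPARG, the adipocyte regulator, had 3.52 and 3.77 FPKM, and FABP4 had 0.611 and 0.643 FPKM.

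HOX genes record position along the body axis in the order of their clusters. Of 38 in the files 15 passed 1 FPKM in both libraries, 11 were under 0.1 FPKM in both, and 4 of those were listed at 0. The share passing among protein-coding genes was 58.2%. HOXB7 was highest with 17.2 and 19.5 FPKM. HOXC13, at the 5′ end of its cluster, had 8.3 and 8.65 FPKM, and HOXC9 had 6.76 and 7.01 FPKM. Levels did not follow the order within the HOXC cluster, since HOXC12, next to HOXC13, and HOXC5, between HOXC4 (3.07 and 3.89 FPKM) and HOXC6 (4.62 and 4.48 FPKM), were listed at 0. HOXB13, of the same paralog group as HOXC13, had 3.74 and 3.88 FPKM. HOXA5 led its cluster with 2.59 and 3.28 FPKM, while HOXA9 was at 0.0176 and 0.037 FPKM. HOXD8 had 4.12 and 3.82 FPKM and HOXD9 had 1.97 and 3.6 FPKM, and HOXD10 was at 0.0198 and 0.0208 FPKM. The antisense transcript HOTAIR of the HOXC cluster had 0.43 and 0.646 FPKM and HOTTIP of the HOXA cluster 0.0106 and 0 FPKM.

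**Figure D4:**
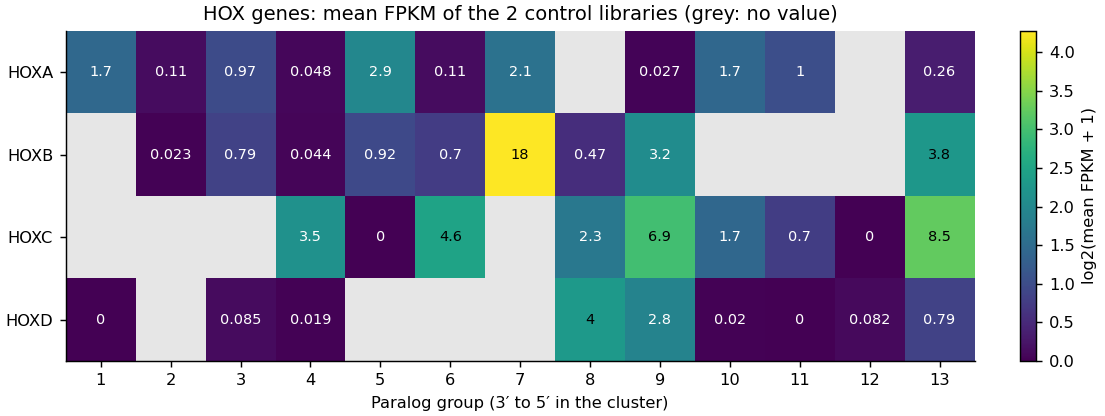
Mean FPKM over the 2 control libraries (number in each cell, colour as log2(mean FPKM + 1)) for HOX genes, with clusters as rows and paralog groups as columns; grey cells have no value here. HOXB7 is the highest cell, and HOXC13 is next to HOXC12 at 0.

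Among 37 developmental factors 18 passed (48.6%), against 58.2% of protein-coding genes. SOX4, which acts in many progenitor cells, was highest with 25.5 and 26.5 FPKM, followed by FOXC1 with 10.4 and 7.8 FPKM. PITX1, a factor of the hind limb, had 5.33 and 7.17 FPKM, and TBX18 had 2.72 and 2.11 FPKM. Of 36 nuclear receptors 22 passed (61.1%), near that share. NR1H2, the oxysterol receptor LXR-beta, led with 35 and 43 FPKM. The glucocorticoid receptor NR3C1 had 9.01 and 6.6 FPKM and the progesterone receptor PGR had 1.21 and 0.757 FPKM.

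For receptors at the cell surface, 21 of 49 receptor tyrosine kinases passed (42.9%), against 58.2% of protein-coding genes. AXL, the GAS6 receptor, was highest with 95.1 and 95.3 FPKM, then EPHA2, an ephrin receptor, with 46.6 and 49.3 FPKM, and MET, the receptor of hepatocyte growth factor, with 48.7 and 33.1 FPKM. EGFR had 8.83 and 6.07 FPKM and IGF1R had 6.45 and 4.76 FPKM, and 20 kinases were under 0.1 FPKM in both libraries. Among 37 G protein-coupled receptors 16 passed (43.2%). OXTR, the oxytocin receptor, had 79.9 and 72.3 FPKM, the highest of them, and ACKR3 had 36.3 and 38.2 FPKM. In the TGF-beta family GDF15 was at 288 and 352 FPKM, TGFB1 at 45.8 and 54.5 FPKM and TGFB2 at 23.2 and 17.2 FPKM. Their receptors TGFBR1 and TGFBR2 had 15.6 and 12.4 FPKM and 20.1 and 16.6 FPKM. CD63, a tetraspanin of late endosomes, led 31 surface antigens with 456 and 555 FPKM. ITGB1, the integrin beta 1 chain, had 422 and 330.2 FPKM, MCAM had 249.5 and 260.1 FPKM, and NT5E, the ectonucleotidase CD73, had 159 and 135 FPKM. HLA class I was transcribed, with HLA-B at 198 and 252 FPKM and B2M at 387 and 443 FPKM, whereas HLA-DRA was listed at 0 and the class II activator CIITA was at 0.0147 and 0.0541 FPKM.

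Each of 26 proliferation markers passed 1 FPKM in both libraries, from PCNA, the replication clamp, with 43.7 and 48.3 FPKM to TYMS, thymidylate synthase, with 1.9 and 2.47 FPKM. MKI67 had 4.64 and 2.74 FPKM. Of 39 tumour suppressors and oncogenes 31 passed (79.5%), against 58.2% of protein-coding genes. CCND1, cyclin D1, had 239.7 and 216 FPKM while CCND2 was at 0.0373 and 0.0392 FPKM. MYC had 23.1 and 26 FPKM and MYCN was at 0 and 0.0215 FPKM. The retinoblastoma gene RB1 had 14.7 and 12.3 FPKM. CDKN2A, which encodes p16 and p14ARF, had 4.64 and 6.41 FPKM, and TERT, telomerase reverse transcriptase, was at 0.0347 and 0.085 FPKM. Cancer-testis antigens, normally transcribed in the germ line, passed in 7 of 15 cases (46.7%). MAGEA1 had 35.4 and 40.6 FPKM and PRAME had 16.2 and 16.8 FPKM, whereas MAGEA4 and SSX2 were listed at 0. MAGEA3 (6.23 and 6.84 FPKM) and MAGEA6 (1.26 and 1.26 FPKM) are near-identical, so that reads cannot be divided between them with certainty.

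Paired families of energy metabolism were unequal in level. Of the lactate dehydrogenases LDHA had 306 and 311 FPKM, LDHB had 93.7 and 108 FPKM, and the testis form LDHC was listed at 0. PKM, the pyruvate kinase of most tissues, had 396 and 443 FPKM, and PKLR, of liver and erythrocytes, was at 0.0204 and 0 FPKM. The hexokinases HK1 and HK2 had 77.9 and 75.8 FPKM and 28.7 and 26 FPKM. The glucose carrier SLC2A1 had 28.3 and 29.2 FPKM, and SLC2A4, the insulin-responsive carrier, was at 0 and 0.0277 FPKM. In the respiratory chain COX4I1 had 38.5 and 52.3 FPKM against 0 listed for COX4I2. COX7A2 had 44.8 and 56.7 FPKM and its muscle form COX7A1 was at 0.212 and 0.111 FPKM. All 3 measured ADP/ATP carriers were present, with SLC25A6 at 119 and 135 FPKM, SLC25A5 at 65.9 and 74.6 FPKM and SLC25A4 at 25.8 and 30.4 FPKM. Succinate dehydrogenase, the target of 3-NP, had SDHB at 27.4 and 32.7 FPKM, SDHD at 15.6 and 15.4 FPKM, SDHA at 13.5 and 14.5 FPKM and SDHC at 12.5 and 13 FPKM. In the citric acid cycle 27 of 28 genes passed (96.4%), against 58.2% of protein-coding genes. PCK1, an enzyme of gluconeogenesis in this list, was the one listed at 0. Its mitochondrial counterpart PCK2 had 8.33 and 8.77 FPKM.

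Of the long noncoding RNAs the highest in both libraries was ENSG00000281181, a lincRNA on chromosome 21 (8437629 to 8438551, GRCh38, minus strand), with 74 and 660.5 FPKM. It lies in the ribosomal DNA repeat, near an annotated 5.8S ribosomal RNA gene on the other strand. Whether the counting used strand is not given in the sources used here, so its reads and those of the ribosomal transcript cannot be told apart. NORAD, which binds Pumilio proteins, had 49.8 and 36.2 FPKM. Hosts of small nucleolar RNAs followed, with SNHG8 at 31.7 and 44.8 FPKM, SNHG29 at 30.2 and 35.5 FPKM, SNHG5 at 28.6 and 36.6 FPKM and GAS5 at 24.9 and 28.4 FPKM. H19, an imprinted RNA, had 12.6 and 15.3 FPKM, whereas its neighbour IGF2 was listed at 0. Among other imprinted genes MEG3 had 5.37 and 4.63 FPKM and its neighbour DLK1 was listed at 0. CDKN1C was at 0.557 and 0.694 FPKM.

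Some large families had few members at 1 FPKM or more, a level that 58.2% of protein-coding genes reached. Only members with a value here are counted, which need not be the whole family. They were picked after their values were seen. Of 49 olfactory receptors 2 passed 1 FPKM in both libraries, OR2W3 with 17.3 and 18 FPKM and OR2T8 with 1.14 and 2.03 FPKM. No member passed among 15 taste receptors, 14 late cornified envelope and SPRR genes, 15 TMPRSS proteases or 6 UDP-glucuronosyltransferases. Among 12 GABA-A receptor subunits none did, although GABRA3 had 1.25 and 0.976 FPKM. Potassium channel genes passed in 9 of 83 cases, led by KCNN4, a calcium-activated channel, with 18.2 and 21.2 FPKM. Cytochrome P450 genes passed in 8 of 44, led by CYP2U1 with 10.6 and 8.3 FPKM. Housekeeping families were the reverse. Mitochondrial ribosomal proteins passed in 73 of 78 cases, proteasome subunits in 35 of 39, and complex I subunits and assembly factors in 39 of 47. Over the autosomes and chromosome X the share of protein-coding genes at or above 1 FPKM was between 57.5% and 61.9%, apart from chromosome 19 with 48.2% (601 of 1246) and chromosome X with 51.8% (349 of 674).

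The libraries were close to each other in level but not identical. Of 11220 genes that averaged at least 1 FPKM, 85 (0.758%) differed at least 2-fold on the log2(FPKM + 1) scale, 40 of them higher in control replicate 1 and 45 higher in control replicate 2. The median of log2(FPKM + 1) in control replicate 1 minus control replicate 2 was -0.01. Among 10156 protein-coding genes 6 differed at least 2-fold, all higher in control replicate 2. The difference followed the length of the gene. Genes were put in 5 groups of equal size by length. In the shortest group (42 to 2521 exonic bases) the median was -0.20, and 24.3% of genes were higher in control replicate 1. In the longest group (8016 to 46064 bases) the median was 0.19, and 79% were higher in control replicate 1. Levels of short genes such as TMSB10 and long ones such as FN1 carry this difference.

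**Figure D5:**
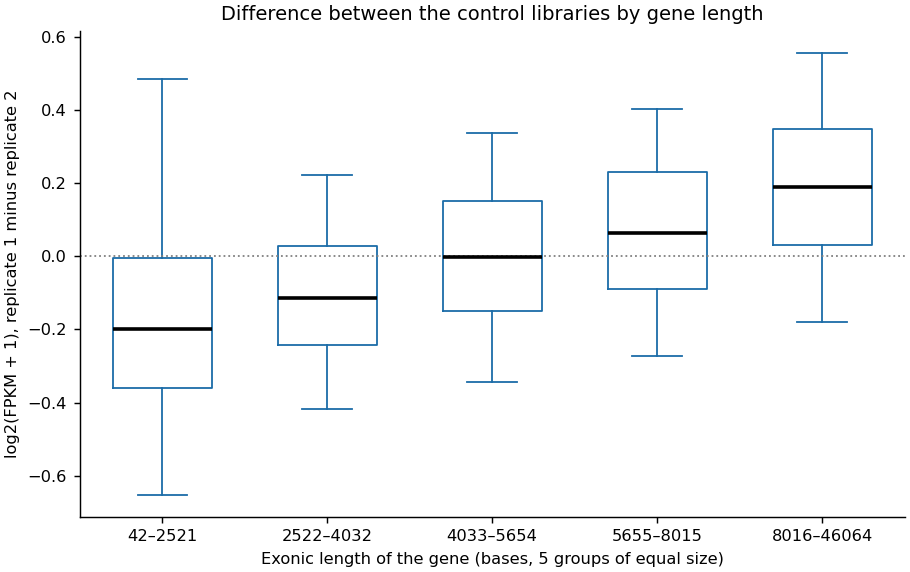
log2(FPKM + 1) in control replicate 1 minus control replicate 2 for genes that averaged at least 1 FPKM and have an annotated length, in 5 groups of equal size by exonic length (horizontal axis, bases); boxes are quartiles with the median as a black bar, and whiskers reach the 5th and 95th percentiles. The medians climb with length, with -0.20 in the shortest group and 0.19 in the longest.

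Among protein-coding genes that averaged at least 10 FPKM, the largest differences in favour of control replicate 1 were in long genes. FAT1, an atypical cadherin with 16177 exonic bases, had 40.7 and 21.5 FPKM, a difference of 0.89. AHNAK, a scaffold protein with 19465, had 97.9 and 58.3 FPKM, and VCAN, the proteoglycan versican with 14831, had 52.8 and 30.6 FPKM. The other 3 of the 6 were PRUNE2, AFF4 and COL12A1. In favour of control replicate 2 were shorter genes. C4orf48, with 540 bases, had 8.1 and 41.7 FPKM, a difference of -2.23. NDUFAF8, an assembly factor of complex I, had 17.7 and 70.2 FPKM, and TMEM160 had 21.6 and 46.7 FPKM. The remaining 3 were ATP5F1D, FAM174C and UBE2S, all on chromosome 19. Noncoding RNAs also differed. The lincRNA ENSG00000281181 was 8.92-fold higher in control replicate 2, and ENSG00000280614, in the neighbouring repeat, had 3.29 and 38 FPKM. RN7SL2, of the signal recognition particle, had 27.9 and 139 FPKM. The mitochondrial ribosomal RNA MT-RNR1 had 615 and 1182 FPKM, while MT-RNR2 had 3829.6 and 4103 FPKM. Interferon-response genes IFI6 (369 and 661 FPKM) and ISG15 (262 and 457 FPKM) were also higher in control replicate 2. They have 865 and 941 exonic bases, within the shortest group, where the median difference was -0.20. Whether length bears on their values was not tested.

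Counting error made up more of the difference between the libraries at low than at high read numbers. For 1980 genes with a mean of 10 to 30 reads the median absolute log2 ratio between the libraries was 0.48, where counting error alone would give 0.34. For 3501 genes with 1000 to 10000 reads it was 0.20, where counting error alone would give 0.03. Deeply counted genes thus differed between the libraries by more than counting error. Removing a smooth trend with length, a step chosen after seeing the data, lowered the median absolute difference of 3758 genes with 1000 reads or more to 0.15 from 0.19. The ratios by read number above used no pseudocount and are not on the same measure as these values. Counting intervals and floors cover counting error only, since reads of amplified libraries are not independent molecules.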

How the data were processed

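Total RNA was extracted with TRIzol and stranded messenger RNA libraries were made, per the labels' protocols. Tools named in the submitters' processing notes are Trimmomatic 0.39, HISAT2 2.1, bcl2fastq 2.17 and the build GRCh38. Which counter and annotation were used is not given in the sources read here. The authors deposited 1 value per Ensembl gene and library, read as FPKM because value times GENCODE 29 exonic length gave whole multiples of 1 step per library. Within 0.05 read, 93.2% and 93.3% of values above 0 were whole, and the step gave the depth. Of 30631 genes, 30390 were in GENCODE 29.

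A gene passed at 1 FPKM or more in both libraries. Genes under 0.1 FPKM in both were counted separately. Members and the 43 lists (810 genes, 756 in the files, the others not analysed here) were chosen with earlier results of these data known. Named genes are the highest genes, the highest members of each list, members under 0.1 FPKM that define a lineage, and the extremes between libraries; other named genes were singled out after their values were seen. Sequences are from RefSeq. Differences between libraries used a pseudocount of 1 FPKM, apart from the ratios by read number, which used none. Y-linked genes and a few others are not reported here. Scripts used Python 3.11.15 with pandas 2.3.3 and statsmodels 0.14.6. The steps for depth and for differing genes were rewritten and tried on simulated reads. That simulation held counting error and planted differences only, without a length trend, and the list counts were not tested in it.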

Additional observations from a re-analysis of the deposited data

How the results depend on the processing

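No paired analysis was possible because 1 group was described and no test was made. The count of genes at 1 FPKM or more in both libraries stayed within 1.5 times of 10810 under every alternative tried, with 8980 at 2 FPKM and 13871 after scaling to TPM; without control replicate 1 or 2 it was 11190 and 11324. Genes listed at 0 numbered 6049; 10982 were under 0.1 FPKM in both libraries, 1575 were protein-coding, and 8446 to 8826 were at 0 in a single library. The share of the 10 highest genes, 14.6%, was 10.6% without mitochondrially encoded genes and 7.49% as a share of reads. For the 100 highest genes, 37.2%, the same values were 28.1% and 25.8%. For ribosomal protein genes, 4.15%, they were 4.87% and 3.18%. Mitochondrial messenger RNAs, 12.7%, were 13.5% of protein-coding FPKM and 3.25% of reads. Short, abundant messages weigh more in FPKM than in reads, by the construction of the unit. Over single libraries these shares ranged over 14.4% to 14.8%, 36.8% to 37.5%, 3.81% to 4.5% and 12.2% to 13.2%. The 85 genes that differed 2-fold became 169 with a pseudocount of 0.1 FPKM, 198 with no filter on low values and 8 at a mean of 10 FPKM or more; median-of-ratios scaling gave 84 and removal of the length trend, added after seeing the data, gave 85. Of the 43 lists, the count of passing members moved by over 1.5 times in 3 at 0.5 FPKM, 5 at 2 FPKM, 7 with TPM, 1 (Sertoli markers, 2 members against 1) without control replicate 1 and 0 without control replicate 2. TPM values are 3.82 and 3.56 times the FPKM values. With 2 libraries the spread between cultures is not known, and a level that rests on 1 to 3 reads cannot be told from 0 at this depth.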

Other observations

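Families of signalling and junction genes, picked after their values were seen, are given by their members at or above 1 FPKM in both control libraries, a level that 58.2% of all protein-coding genes reached. Of 18 WNT ligands 6 passed, led by WNT5B with 39.4 and 45 FPKM and WNT10B with 9.86 and 9.62 FPKM. WNT5A, which signals without beta-catenin in many tissues, had 7.76 and 5.94 FPKM. Of 17 FGF ligands 3 passed, FGF2 with 20.5 and 14.9 FPKM, FGF1 with 7.2 and 6.08 FPKM and FGF5 with 5.99 and 3.83 FPKM. Of 18 claudins, the proteins of tight junctions, 3 passed, and CLDN1 was highest with 22.9 and 18.8 FPKM. Of 16 SOX factors 3 passed, SOX4, SOX9 and SOX12, the last with 1.93 and 2.55 FPKM. Keratin-associated proteins, which cross-link hair keratins, passed in 3 of 15 cases, with KRTAP1-5 at 40.3 and 50.7 FPKM and KRTAP2-3 at 6.76 and 7.5 FPKM.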
